A study of Mus musculus with 4 samples.

Results

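T cells in expanded clonotypes are T cells whose rearranged receptor was read in more than 1 cell of the same library. A barcode (1 captured droplet, normally 1 cell) was a member when its clonotype was seen in at least 2 barcodes of the same receptor contig table. The clonotype was defined by the V gene, the J gene and the nucleotide sequence of the CDR3, the joint between the segments, of the productive alpha chain (TRA) and the productive beta chain (TRB) with most unique molecular identifiers (UMIs). The rule found 96 members among 3313 barcodes with both chains, and the 2 RNA libraries held 16017 barcodes in all. The remaining 3217 paired barcodes had a clonotype seen in 1 barcode and are called unique cells here. The counts of receptors chose the members, so all shares of expanded cells below are descriptions.

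The cells came from tumor-draining lymph nodes of wildtype mice, taken on day 8 after tumor cells were injected. From day 3 the treated mice ate chow with RGX-104, which activates the liver X receptors (LXR), and control mice ate control chow. Flow cytometry separated T cells and antigen-presenting cells (APCs), and 10x 5' RNA libraries and receptor libraries were made from them. Each chow had 1 RNA library and 1 receptor library, the labels do not say how many mice went into each, and all values compare these libraries and not chows in general.

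A T cell builds its receptor once, by joining V, D and J segments with random trimming and addition of bases, so cells that share both rearranged chains are normally descendants of 1 ancestor. A naive T cell that meets its antigen in a draining node divides, loses lymph node homing and survival receptors, and gains activation, migration and effector genes; follicular helper, regulatory and cytotoxic cells are among the fates its daughters take. In a lymph node, where most T cells are naive, nearly every cell is thus expected to carry a receptor of its own.

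The receptors below are those of the clonotypes with at least 3 barcodes, of both clonotypes made up of regulatory T cells, and the beta chains of the expanded TRBV3 clonotypes of the RGX-104 library, since the results on single clonotypes and on V genes turn on them. They are CDR3 nucleotide sequences as deposited in the contig tables, 5′ to 3′, from the codon of the conserved cysteine of the V gene to the codon of the conserved residue that starts the J motif. Capitals mark the bases between the longest start shared with at least 3 and at least 10% of the other clonotypes of the same V gene and the longest end shared likewise for the same J gene. TRA lies on mouse chromosome 14 and TRB on chromosome 6. The lines that follow here belong to the RGX-104 library.
TRAV9-1/TRBV3 TRA: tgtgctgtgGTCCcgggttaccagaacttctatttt
TRAV9-1/TRBV3 TRB: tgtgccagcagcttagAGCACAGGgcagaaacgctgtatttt
TRAV5D-4/TRBV10 TRA: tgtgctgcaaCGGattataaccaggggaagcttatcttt
TRAV5D-4/TRBV10 TRB: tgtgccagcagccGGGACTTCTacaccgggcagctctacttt
TRAV8N-2/TRBV29 TRA: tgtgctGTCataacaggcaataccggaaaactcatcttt
TRAV8N-2/TRBV29 TRB: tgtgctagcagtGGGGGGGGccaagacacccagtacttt
TRAV14-3/TRBV12-2 TRA: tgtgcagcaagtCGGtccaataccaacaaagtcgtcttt
TRAV14-3/TRBV12-2 TRB: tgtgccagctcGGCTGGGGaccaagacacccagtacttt
The control library had 1 clonotype with 3 barcodes and 1 clonotype of 2 regulatory T cells.
TRAV7-5/TRBV19 TRA: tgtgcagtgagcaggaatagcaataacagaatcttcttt
TRAV7-5/TRBV19 TRB: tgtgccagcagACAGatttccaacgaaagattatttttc
TRAV14-3/TRBV20 TRA: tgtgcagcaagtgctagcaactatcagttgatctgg
TRAV14-3/TRBV20 TRB: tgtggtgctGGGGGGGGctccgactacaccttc
The other expanded TRBV3 clonotypes of the RGX-104 library had these beta chains.
TRAV14-1/TRBV3 TRB: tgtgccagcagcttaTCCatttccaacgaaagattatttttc
TRAV14D-3-DV8/TRBV3 TRB: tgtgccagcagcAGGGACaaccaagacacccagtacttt
TRAV19/TRBV3 TRB: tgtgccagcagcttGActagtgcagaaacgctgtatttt
TRAV4D-4/TRBV3 TRB: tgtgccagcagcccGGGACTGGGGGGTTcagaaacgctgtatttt
TRAV6-7-DV9/TRBV3 TRB: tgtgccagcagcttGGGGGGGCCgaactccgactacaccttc

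The expanded receptors differed from each other. No pair among the 45 expanded TRA sequences, or among the 45 expanded TRB sequences, was identical. In the 242 TRA pairs of equal length the fewest differing bases were 3, and in the 218 TRB pairs the fewest were 6. The 6 TRBV3 chains of the RGX-104 library formed 4 pairs of equal length, which differed at 13 or more bases. Most of the non-shared bases lay in the beta chain, with a median of 9 (range 1 to 19) in TRB and of 1 (range 0 to 10) in TRA.

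The RGX-104 library held 61 members among 1549 paired barcodes, or 3.94% (Clopper-Pearson 95% interval 3.02% to 5.03%). The control library held 35 members among 1764 paired barcodes, or 1.98% (1.39% to 2.75%). The share was 1.98 times as high in the RGX-104 library (exact interval 1.29 to 3.10, counting error only), and counted by clonotypes the ratio was 1.90 (1.003 to 3.69). By the beta chain alone, over all barcodes with a TRB, the shares were 7.11% in the RGX-104 library and 5.32% in the control library. With every clonotype left out whole that held 2 barcodes each nearest to the other in expression, they were 1.98% and 1.2%. With the control library reduced in expectation to the 1549 barcodes of the other, its share was 1.76%. Nearly all clonotypes sat at the threshold of the rule. The RGX-104 library had 28 expanded clonotypes, 25 of them with 2 barcodes, 2 with 3 and 1 with 5, beside 1488 clonotypes seen in 1 barcode. The control library had 17, of which 16 had 2 barcodes and 1 had 3, beside 1729 seen in 1 barcode.

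No expanded clonotype was found in both libraries, and of all clonotypes, 1516 in the RGX-104 library and 1746 in the control library, 1 was found in both. The libraries shared 95 RNA barcodes, 6 of them with paired receptors and 1 of them a member, and none of the 6 had the same clonotype in both. Among barcodes with a TRB and no TRA, 12 in the RGX-104 library and 3 in the control library carried the TRB of an expanded clonotype. These joined 5 of 28 expanded clonotypes (17.9%) in the RGX-104 library and 3 of 17 (17.6%) in the control library, against 1.96% and 0.989% of the unique TRB chains in the RGX-104 and control libraries. These barcodes are not members, since the rule needs both chains.

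The authors' deposited table named 35 of 61 members as T cells in the RGX-104 library (57.4%) and 23 of 35 in the control library (65.7%), against 69.7% and 78.1% of the unique cells of the RGX-104 and control libraries. The other 26 and 12 members had no annotation, and no member was annotated as an APC. Members were shallower than unique cells. Annotated expanded cells had a median of 3984 UMIs against 5459 in unique cells of the RGX-104 library, and 3667 against 5258 in the control library. The 35 annotated members of the RGX-104 library summed to 192219 UMIs and the 23 of the control library to 94278, and these sums carry all gene values below.

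T cell markers were present in all annotated members. The 14 T cell marker genes summed to 6904 UMIs per 1000000 UMIs (CPM) in annotated expanded cells and 6066 in unique cells of the RGX-104 library, and to 8114 and 6486 CPM in expanded and unique cells of the control library. Members without annotation had 5094 CPM in the RGX-104 library and 4593 CPM in the control library. All annotated members had at least 3 of the 14 genes, as did all unannotated members except 1 in the control library. The B cell list stood at 572 CPM in annotated expanded cells and 545 CPM in unique cells of the RGX-104 library, and at 615 and 495 CPM in those of the control library. In unannotated members it reached 6550 CPM in the RGX-104 library and 5286 CPM in the control library, against 7074 and 7271 CPM in unannotated unique cells of the RGX-104 and control libraries. Gene values below therefore use annotated cells.

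**Figure D1:**
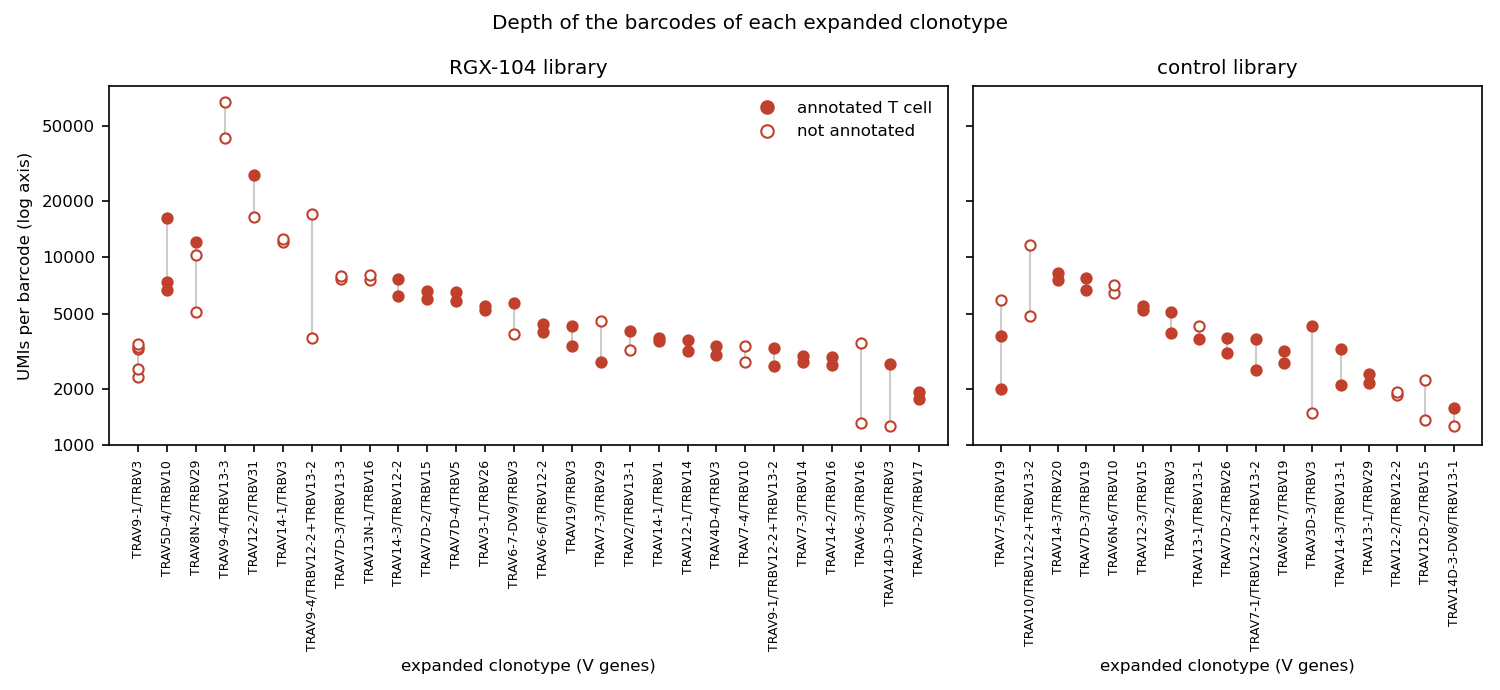
Total UMIs of each member barcode (log axis) by expanded clonotype in the RGX-104 library (left) and the control library (right), with filled points for annotated T cells, open points for barcodes without annotation and a line joining the barcodes of a clonotype. Barcodes of a clonotype often lie close together, and the deepest pair, TRAV9-4/TRBV13-3 of the RGX-104 library, has 67191 and 43083 UMIs.

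Clone mates, the barcodes of the same clonotype, resembled each other in expression. Likeness was the Pearson correlation of count residuals over 5796 genes in the RGX-104 library and 5745 in the control library, without receptor genes, given as a description because the genes and the library are shared. Its median over all mates, annotated or not, was 0.150 in the RGX-104 library and 0.142 in the control library. Between mates that were both annotated it was 0.117 in the RGX-104 library, against 0.0105 between annotated unique cells. In the control library these medians were 0.134 and 0.00683. Pairs of unique cells of the same annotated type had medians of 0.0258 in the RGX-104 library and 0.0201 in the control library. For 36 of 61 members of the RGX-104 library, the barcode most alike among the 1548 others was a clone mate, and this held for 17 of 35 members among the 1762 others of the control library.

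In 15 of 28 clonotypes of the RGX-104 library and 7 of 17 of the control library, a pair of mates were each the most alike to the other. Mates were also alike in depth. Over all mates the deeper barcode had a median of 1.23 times the UMIs of the other in the RGX-104 library and 1.24 times in the control library. For annotated mates the medians were 1.11 and 1.19 times, against 1.44 and 1.43 times for pairs of annotated unique cells. Unique pairs of the same type had 1.33 times in both libraries. Barcodes of mates differed at 7 or more of their bases in both libraries. Whether a pair of barcodes held 1 cell or 2 was not tested. Values without the closest pairs leave out, whole, every clonotype that holds such a pair. In the RGX-104 library this takes out TRAV5D-4/TRBV10 with all 3 of its barcodes. These values are given beside the results whose direction or size they change most.

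Likeness varied with the type. All 6 members named CD8_03 in the RGX-104 library and all 3 members named Treg in each library had rank 1, that is, a mate was the nearest barcode. The 4 members named CD8_01 in the control library had mates at ranks 110 to 756, and the 4 of the RGX-104 library at ranks 1 to 136. By rank, the CD8_01 mates of the control library were thus less alike than its Treg mates. In the RGX-104 library the CD8_01 members were mixed, with ranks of 1, 5, 121 and 136. The pair with rank 5, TRAV12-2/TRBV31, had a correlation of 0.482, above the 0.150 to 0.183 of the CD8_03 pairs.

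**Figure D2:**
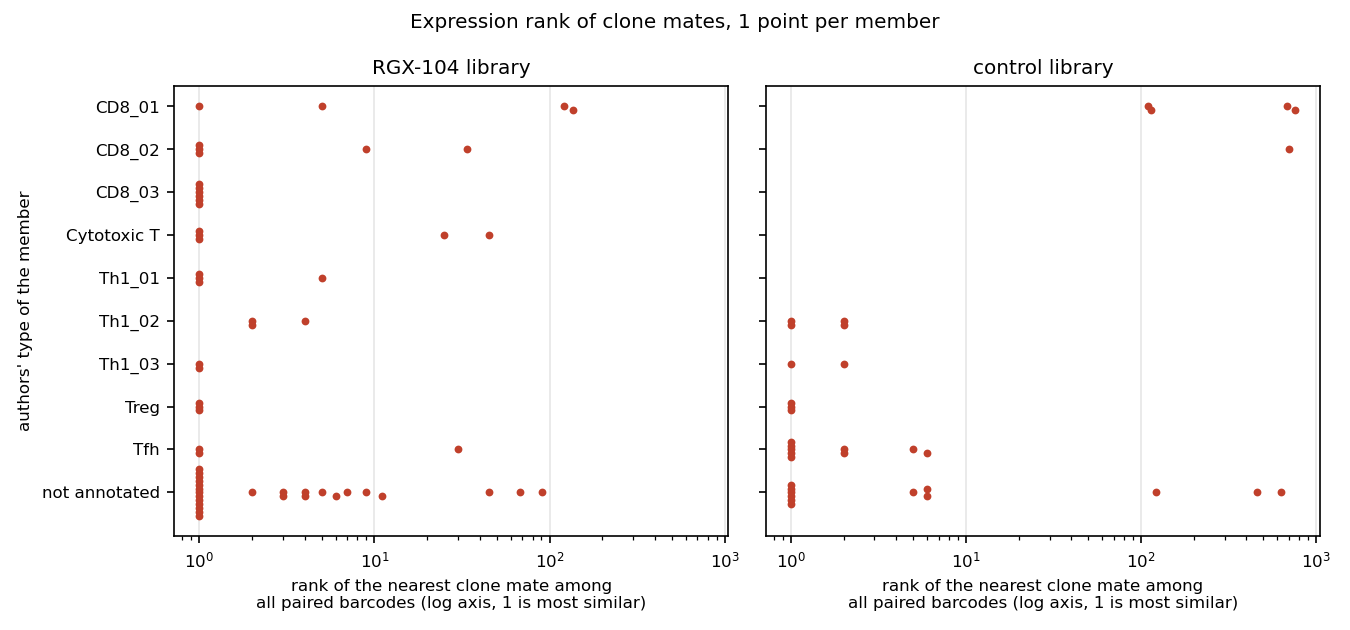
Rank of the nearest clone mate among all paired barcodes of the library by similarity of expression (log axis, 1 is most alike), 1 point per member, by the authors' type, in the RGX-104 library (left) and the control library (right). Points pile up at rank 1 in both libraries, while the control members named CD8_01 lie between 110 and 756.

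Some pairs shared transcripts of B cells and APCs. The mates of TRAV13N-1/TRBV16 in the RGX-104 library had 59 and 53 UMIs of Cd74, the invariant chain of MHC class II, and 4 and 9 UMIs of Cd79a, a subunit of the B cell receptor. TRAV14-1/TRBV3 of the same library had 36 and 34 UMIs of Cd74 and 9 and 11 of Cd79a, and TRAV6N-6/TRBV10 of the control library had 51 and 52 UMIs of Cd74 and 8 and 7 of Cd79a. All 6 barcodes lacked an annotation. The largest clonotype, TRAV9-1/TRBV3 with 5 barcodes, was likewise without annotation: its barcodes had 6 to 40 UMIs of Lyz2, a lysozyme of myeloid cells, 13 to 59 of Cd74 and 0 to 3 of Cd3e, a subunit of the T cell receptor complex. It also had 1 to 8 UMIs of the proliferation gene Mki67 in each barcode. The part of other cells in these barcodes was not tested.

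Annotated mates mostly carried the same type name. In the RGX-104 library 12 of 16 pairs of annotated mates had the same type (75%), against 12.2% of pairs of unique cells, and in the control library 8 of 10 (80%) against 13.7%. The pairs with different names were these: Th1_01 with Th1_02, Th1_01 with Th1_03, and CD8_01 with CD8_02 in the RGX-104 library, and Th1_02 with Th1_03 in the control library.

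The type whose share stood farthest above that of unique cells was not the same in the 2 libraries, a contrast that was not tested. In the RGX-104 library the Cytotoxic T type held 5 of 35 annotated members, or 14.3% (4.81% to 30.3%), against 2.03% of unique cells, and the interval lay above the unique share. These 5 cells came from 3 clonotypes and made up 19.2% of the paired cells of that type. With each clonotype counted as 1 the share was 3 of 20, or 15% (3.21% to 37.9%). Intervals of shares of cells treat the cells as independent, which clone mates are not. CD8_03 held 17.1% of members against 8.10% of unique cells, an interval of 6.56% to 33.7% that includes the unique share. The 3 CD8 types together held 42.9% of members and 42.5% of unique cells.

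In the control library the follicular helper type, Tfh, held 9 of 23 annotated members, or 39.1% (19.7% to 61.5%), against 6.29% of unique cells. These came from 5 clonotypes, and with each clonotype counted as 1 the share was 38.5%. In the RGX-104 library Tfh held 3 of 35 members (8.57%, interval 1.80% to 23.1%) against 5.40% of unique cells. The CD8 types together held 21.7% of control members (7.46% to 43.7%) against 45.2% of unique cells. With each clonotype counted as 1 this was 3 of 13, or 23.1% (5.04% to 53.8%), an interval that includes the unique share. No control member was named Cytotoxic T or CD8_03, types that held 0.888% and 6.07% of control unique cells. The absence allows shares of up to 14.8%, so a share below that of unique cells was not detectable. Treg held 8.57% of members against 4.53% of unique cells in the RGX-104 library and 13% against 5.03% in the control library, and both intervals include the unique share. No member of either library was named Bcat1+ T, IFN-responsive T or gd T cells, types that held 3.38%, 4.15% and 0.964% of unique cells in the RGX-104 library and 1.92%, 2.07% and 1.18% in the control library. Absence allows shares of up to 10.0% in the RGX-104 library and 14.8% in the control library. A share below that of unique cells was thus not detectable for these types either.

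**Figure D3:**
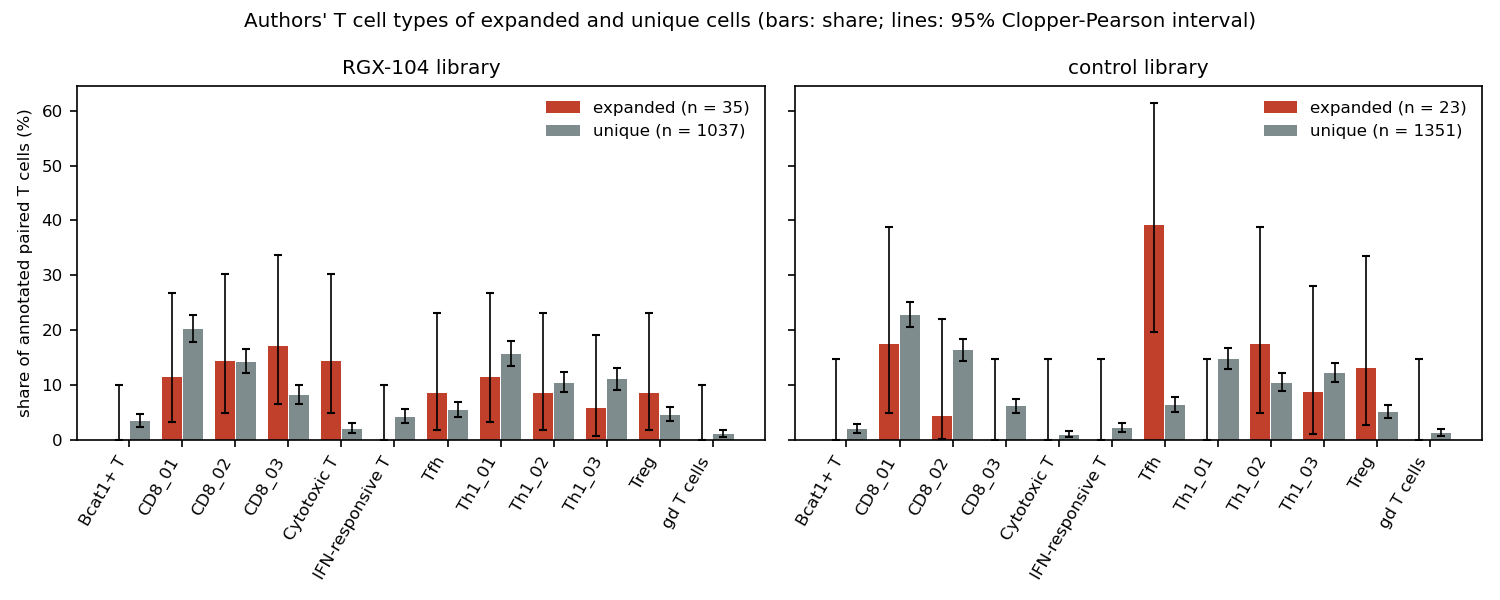
Share of each of the authors' T cell types among annotated expanded cells (red) and annotated unique cells (grey) with 95% Clopper-Pearson intervals, in the RGX-104 library (left) and the control library (right). Cytotoxic T stands at 14.3% of expanded cells against 2.03% of unique cells in the RGX-104 library, and Tfh at 39.1% against 6.29% in the control library.

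The authors' deposited table also gives each T cell a clonal frequency, which covers more cells. According to the authors' deposited table, 429 of 1664 cells with a receptor had a frequency of at least 2 in the RGX-104 library (25.8%) and 294 of 1834 in the control library (16%). Most of these, 398 and 271, had 1 chain only. In the authors' deposited table the frequency equalled the number of cells with the same receptor gene names for 99.4% of cells of the RGX-104 library and 99.9% of the control library. The rule and that table both called 26 annotated cells expanded in the RGX-104 library and 20 in the control library; 9 and 3 were called by the rule alone.

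Single clonotypes carried much of what the expanded cells expressed. TRAV5D-4/TRBV10 of the RGX-104 library was 3 Cytotoxic T cells with 6, 2 and 13 UMIs of Gzmb (granzyme B, a protease of killer cells), 13, 22 and 11 of Ifng (interferon gamma) and 14, 29 and 36 of Nkg7, a cytotoxic granule protein. Its cells had 0, 7 and 6 UMIs of Cd4 and none of Cd8a or Cd8b1, the genes of the CD8 coreceptor. So this clonotype paired helper-lineage coreceptor transcripts with cytotoxic ones. TRAV8N-2/TRBV29 had 4, 2 and 8 UMIs of Cd8a and none of Cd4. It had 7, 10 and 4 UMIs of Gzmb and 3, 40 and 117 of Ccl5, a chemokine of effector T cells. Of its 3 barcodes 1 was annotated, as Cytotoxic T. The unannotated barcode with 10 UMIs of Gzmb also had 124 UMIs of Cd74 and 10 of Cd79a. In the other unannotated barcode 8.75% of UMIs were mitochondrial.

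Further clonotypes of the RGX-104 library with Cd8a and no Cd4 UMIs differed in Ccl5. TRAV7-3/TRBV29 had 159 UMIs of Ccl5 in its cell named Cytotoxic T and 270 in its barcode without annotation, with 0 UMIs of Gzmb and Mki67 0 and 1. TRAV9-4/TRBV12-2+TRBV13-2, a pair without annotation whose V gene the contig table gives as a merged name, had 38 and 438 UMIs of Ccl5 and 2 and 15 of Gzmb. TRAV12-2/TRBV31 had almost no UMIs of Ccl5 or Gzmb but had Mki67. Its barcode without annotation had 15 UMIs of Mki67 and its deeper cell, named CD8_01, had 9, while Gzmb was 0 in both and Ccl5 was 0 and 1.

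Regulatory T cell clonotypes appeared in both libraries. TRAV14-3/TRBV12-2 of the RGX-104 library was 2 Treg cells with 3 and 5 UMIs of Foxp3, the lineage factor of regulatory T cells, 7 and 8 of Gzmb, and 20 and 21 of Mki67. TRAV14-3/TRBV20 of the control library was 2 Treg cells with 2 and 4 UMIs of Foxp3, 1 and 3 of Gzmb and 1 each of Mki67. Foxp3 was also read in each of the 3 barcodes of TRAV7-5/TRBV19 of the control library, at 1, 2 and 2 UMIs, though its 2 annotated cells were named Th1_02; Mki67 was 6, 8 and 7 there.

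The control Tfh members came from TRAV12-3/TRBV15, TRAV14-3/TRBV13-1, TRAV7-1/TRBV12-2+TRBV13-2, TRAV13-1/TRBV13-1 and TRAV7D-3/TRBV19. The first 4 of these clonotypes had 4, 1, 2 and 14 UMIs of Cd4 and none of Cd8a or Cd8b1. TRAV7D-3/TRBV19 had 28 UMIs of Cd8a and Cd8b1 in its 2 cells and none of Cd4, against its type name. By coreceptor, the RGX-104 clonotypes split into 8 with Cd4 alone, 15 with Cd8 alone, 3 with both and 2 with neither, and the control clonotypes into 7, 5, 2 and 3. Most clonotypes with a coreceptor read in them thus carried 1 kind.

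Across all genes, expanded and unique annotated cells were compared within each library by summed UMIs per total. Of 8100 genes with at least 50 UMIs in each library, 617 (7.62%) were at least 1.5-fold higher in expanded cells of both libraries and 550 (6.79%) were at least 1.5-fold lower. A gene at the minimum of 50 UMIs was expected to give 1.40 UMIs in expanded cells of the RGX-104 library and 0.580 in those of the control library, so many calls rest on few or no reads. Of the 550 lower genes, 318 had 0 UMIs in expanded cells of the control library. With at least 3 UMIs observed or expected in both libraries, 508 of the higher and 116 of the lower genes were left among 5017 genes. At 200 UMIs 249 were higher and 113 lower. With TMM factors, which lower all log2 ratios by 0.21 in the RGX-104 library and 0.34 in the control library, 280 were higher and 960 lower. In 158 genes (1.95%) both 95% intervals lay above 1, and in 90 (1.11%) both lay below 1. The median log2 ratio over all genes was 0.10 in the RGX-104 library and 0.08 in the control library. The intervals cover counting error only, and the UMIs of a clonotype's cells are not independent. The share of the clonotype with most UMIs of the gene is therefore given with many values.

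Genes of migration and of the effector or memory state stood higher in expanded cells of both libraries. Of 20 measured effector and memory genes 11 were higher in both libraries and none lower, and the list summed to 7934 CPM in expanded cells against 4112 CPM in unique cells of the RGX-104 library, a fold of 1.93 (1.83 to 2.03), and to 8348 against 4095 CPM in the control library, a fold of 2.04 (1.90 to 2.19). The 11 were Cd44, Cxcr3, Ccr2, S100a4, S100a10, S100a11, Lgals1, Anxa2, Vim, Ahnak and Id2. The median log2 ratio over the list was 1.04 in the RGX-104 library and 0.89 in the control library.

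Ahnak, a large scaffold protein of activated T cells, stood at 645 CPM in expanded cells against 179 in unique cells of the RGX-104 library and at 520 against 152 CPM in the control library. Its ratios were 3.60 (2.97 to 4.34) and 3.41 (2.51 to 4.54), and TRAV14-3/TRBV12-2 gave 45.2% of its UMIs in the RGX-104 library and TRAV7D-3/TRBV19 34.7% in the control library. S100a10, a calcium-binding protein partner of annexin, had ratios of 2.06 (1.77 to 2.40) and 2.42 (2.0 to 2.91) in the RGX-104 and control libraries. Cd44, the adhesion receptor that marks antigen-experienced T cells, had 1.98 (1.21 to 3.07) and 2.92 (1.62 to 4.87), with UMIs in 12 of 35 and 8 of 23 expanded cells. S100a10 UMIs came from 16 clonotypes in the RGX-104 library, yet TRAV5D-4/TRBV10 gave 58.3% of them. Without the closest pairs, a setting that also leaves out this clonotype, the RGX-104 ratio of S100a10 was 0.831.

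Lgals1, the galectin of activated and regulatory T cells, rested on few cells. It stood at 869 CPM in expanded cells against 353 in unique cells of the RGX-104 library and 785 against 348 CPM in the control library, ratios of 2.46 (2.09 to 2.88) and 2.26 (1.77 to 2.84). TRAV5D-4/TRBV10 gave 65.9% of its UMIs in the RGX-104 library and TRAV14-3/TRBV20 74.3% in the control library. Without TRAV5D-4/TRBV10, the clonotype with most annotated cells, the RGX-104 ratio was 0.996. In the control library 10 clonotypes tied at 2 annotated cells, and without 3 of them the ratio was 0.592. Ccr2, a receptor for inflammatory chemokines, had 7.31 (4.6 to 11.2) in the RGX-104 library and 2.43 (0.65 to 6.37) in the control library, and Cxcr3, the receptor for interferon-induced chemokines, 1.92 (1.06 to 3.23) and 3.67 (1.65 to 7.10). Without the closest pairs Lgals1 stood at 0.671 in the control library and Cxcr3 at 0.961 in the RGX-104 library.

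**Figure D4:**
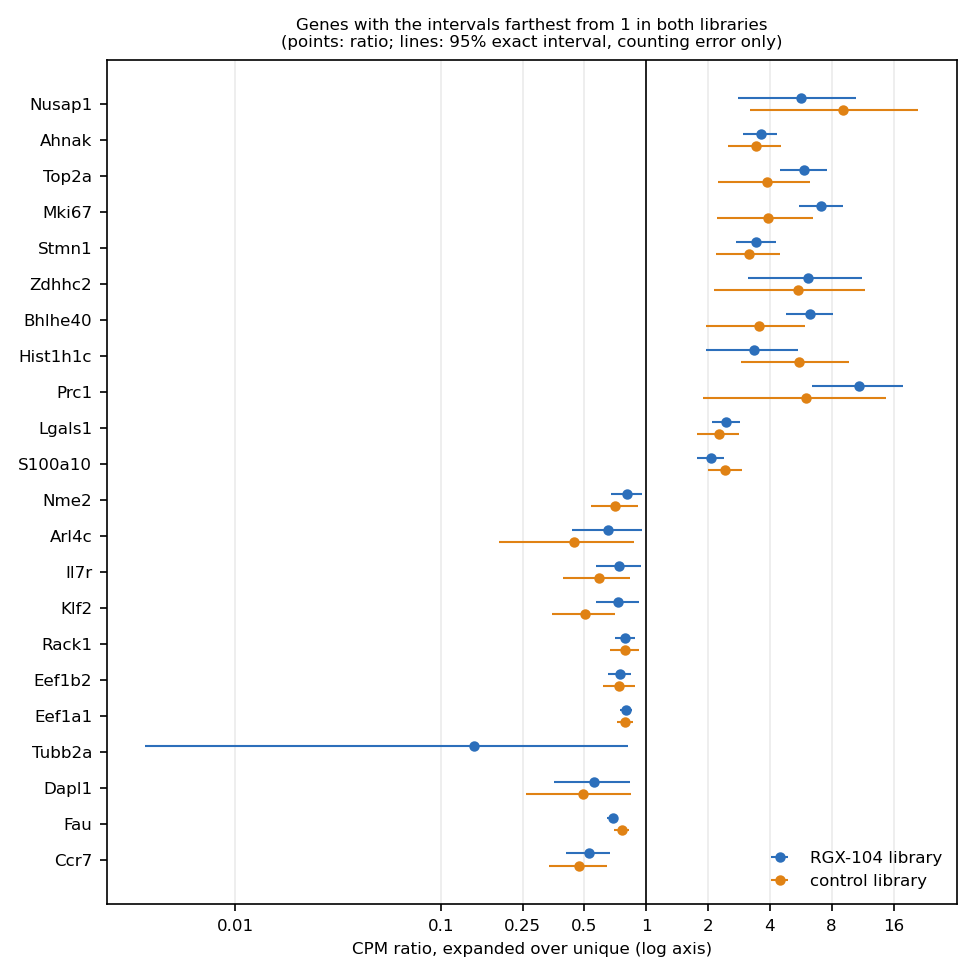
Ratio of summed CPM in expanded over unique annotated T cells (log axis) with 95% exact intervals in the RGX-104 library (blue) and the control library (orange), for genes among the 12 highest and the 12 lowest by the bound nearest to 1. Tubb2a is not drawn for the control library, where it had 0 UMIs in expanded cells; cell division genes such as Prc1 have the highest ratios and Ccr7 and Dapl1 lie near 0.5 in both libraries.

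Proliferation genes were higher in expanded cells, through a few clonotypes. Of 30 measured genes 12 were higher in both libraries and none lower, and the list stood at 7746 CPM in expanded cells against 2527 in unique cells of the RGX-104 library and at 3278 against 2063 CPM in the control library. The ratios were 3.07 (2.91 to 3.23) and 1.59 (1.42 to 1.78). Mki67, which marks dividing cells, had 432 CPM in expanded cells against 60.6 in unique cells of the RGX-104 library and 170 against 43.2 CPM in the control library. Its ratios of 7.13 (5.56 to 9.04) and 3.93 (2.22 to 6.47) came from 4 clonotypes in the RGX-104 library and 2 in the control library. In the RGX-104 library TRAV14-3/TRBV12-2 gave 49.4% of its UMIs, and in the control library TRAV7-5/TRBV19 gave 87.5%.

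Other genes of division were also higher, through partly other clonotypes. Top2a, a DNA topoisomerase, had ratios of 5.89 (4.50 to 7.62) and 3.87 (2.23 to 6.28) in the RGX-104 and control libraries, Stmn1, a microtubule regulator, 3.44 (2.73 to 4.30) and 3.17 (2.18 to 4.46), and Prc1, a protein of the dividing spindle, 10.9 (6.41 to 17.8) and 6.0 (1.89 to 14.7). All control UMIs of Prc1, Nusap1 and Cenpf, 5, 6 and 5 of them, came from TRAV7-5/TRBV19. The linker histone gene Hist1h1c had 3.37 (1.95 to 5.47) and 5.54 (2.90 to 9.69). By the phase calls of the authors' deposited table, 10 of 35 annotated members were called in the G2M phase in the RGX-104 library (28.6%, 14.6% to 46.3%) against 11.8% of unique cells, and 3 of 23 in the control library (13%, 2.78% to 33.6%) against 10.3%. Calls of the S phase lay the other way, at 28.6% of members against 38.8% of unique cells in the RGX-104 library and 34.8% against 38.0% in the control library. The intervals of the G2M shares treat cells as independent, which clone mates are not. Mki67 or Top2a was found in 8 of 35 members in the RGX-104 library and 8 of 23 in the control library, against 9.55% and 8.73% of unique cells in the RGX-104 and control libraries. These members came from 5 clonotypes in the RGX-104 library and 4 in the control library. Among the latter, each cell of TRAV14-3/TRBV20 had 1 UMI of Mki67 and none of Top2a. Each cell of TRAV7D-2/TRBV26 and TRAV7D-3/TRBV19 had 1 UMI of Top2a and none of Mki67.

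Inhibitory receptor and follicular helper genes were higher in expanded cells of both libraries. The lists overlap, so their counts are not separate results. Pdcd1, Tox, Btla and Cd200 count as higher in both of these lists. Ctla4 counts in the inhibitory receptor, regulatory T cell and CD4 lineage lists. Of 11 measured genes of the inhibitory receptor list 6 were higher in both and none lower, with summed ratios of 2.06 (1.77 to 2.38) in the RGX-104 library and 3.05 (2.59 to 3.58) in the control library. Pdcd1, the gene of PD-1, had 7 UMIs in expanded cells and a ratio of 3.61 (1.40 to 7.87) in the RGX-104 library, and 6 UMIs and 4.30 (1.55 to 9.63) in the control library. A Tfh clonotype gave most of them in each library, TRAV6-7-DV9/TRBV3 with 6 UMIs in the RGX-104 library and TRAV7-1/TRBV12-2+TRBV13-2 with 5 in the control library. Ctla4, which competes for costimulatory ligands, stood at 328 CPM in expanded cells against 152 in unique cells of the RGX-104 library and at 636 against 164 CPM in the control library, ratios of 2.16 (1.64 to 2.78) and 3.88 (2.94 to 5.02). In the control library 70.0% of its UMIs came from the Treg clonotype TRAV14-3/TRBV20, and without the closest pairs the control ratio was 0.876.

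In the follicular helper list 7 of 12 measured genes were higher in both libraries and none lower, 1 of them, Cxcr5, on 3 UMIs in the RGX-104 library and 1 in the control library, with summed ratios of 1.70 (1.48 to 1.94) in the RGX-104 library and 2.89 (2.48 to 3.34) in the control library. Sh2d1a, the adaptor SAP that T cells need to help B cells, had ratios of 2.26 (1.60 to 3.11) and 3.27 (2.18 to 4.74), and its UMIs came from 9 clonotypes in each library. Maf, a transcription factor of helper cells, had 2.35 (1.53 to 3.47) and 3.58 (2.06 to 5.80) in the RGX-104 and control libraries, from 6 clonotypes in each. Icos, a costimulatory receptor, had 1.42 (1.07 to 1.84) in the RGX-104 library and 3.11 (2.39 to 3.98) in the control library. Without the closest pairs Maf and Icos stood at 0.869 and 0.661 in the RGX-104 library, while Sh2d1a stayed above 1 in both libraries.

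The regulatory T cell list had summed ratios of 1.56 (1.38 to 1.76) in the RGX-104 library and 2.37 (2.08 to 2.69) in the control library, with 5 of 16 measured genes higher in both and none lower. Without the closest pairs, which hold both Treg clonotypes named above, the RGX-104 ratio was 0.832. All 8 UMIs of Foxp3 in annotated expanded cells of the RGX-104 library came from TRAV14-3/TRBV12-2, and its ratio there was 1.40 (0.60 to 2.81); in the control library it was 2.68 (1.21 to 5.16). Ikzf2, the factor Helios, had 1.63 (1.13 to 2.27) and 1.89 (1.16 to 2.90) in the RGX-104 and control libraries. With unique cells reweighted to the types of the expanded cells, the control ratios were 0.975 for the regulatory list and 0.793 for Ikzf2, and with all paired barcodes or at least 3 barcodes per clonotype the RGX-104 ratio of Ikzf2 was 0.974 or 0.616. The CD4 lineage list followed with 1.39 (1.22 to 1.58) and 2.69 (2.37 to 3.04), and 3 of 10 genes higher in both, Cd4, Tnfsf8 and Ctla4. Without the closest pairs the RGX-104 ratio of this list was 0.776. Cd4 itself stood at 198 CPM in expanded cells against 120 in unique cells of the RGX-104 library and at 244 against 112 CPM in the control library, and its ratios without the closest pairs were 0.978 and 0.964.

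Genes that follow receptor signalling were higher too. In the list of receptor signalling and immediate early genes 6 of 21 were higher in both libraries and 1, Egr2, lower on 1 UMI in the RGX-104 library and 0 in the control library, with summed ratios of 1.57 (1.46 to 1.69) in the RGX-104 library and 1.47 (1.34 to 1.61) in the control library. Nr4a1, a nuclear receptor induced by antigen, stood at 338 CPM in expanded cells against 152 in unique cells of the RGX-104 library and at 392 against 147 CPM in the control library, ratios of 2.23 (1.71 to 2.86) and 2.67 (1.87 to 3.70). In clonotypes with at least 3 barcodes the RGX-104 ratio of Nr4a1 was 0.311. Irf4, a factor induced in proportion to receptor signal, had 2.09 (1.15 to 3.52) and 10.1 (6.57 to 15.0) in the RGX-104 and control libraries. In the control library 60.7% of the Irf4 UMIs came from the Tfh clonotype TRAV7-1/TRBV12-2+TRBV13-2. Batf, its partner at DNA, had 2.62 (1.75 to 3.77) and 1.96 (1.04 to 3.38). Bhlhe40, a factor of cytokine-producing T cells, had 6.28 (4.79 to 8.14) and 3.55 (1.97 to 5.93), and TRAV5D-4/TRBV10 gave 59.4% of its UMIs in the RGX-104 library and TRAV7D-3/TRBV19 66.7% in the control library. With unique cells reweighted to the types of the expanded cells, the control ratio of Bhlhe40 was 0.956.

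Some naive and homing genes were lower in expanded cells. None of 20 measured naive and central memory genes was higher in both libraries, 16 were neither, and 4 were lower in both, Ccr7, Dapl1, Ccr9 and Ly6c1. Ccr9 had 0 UMIs in expanded cells of both libraries where 3.82 and 1.93 were expected from unique cells, and its control interval reached 1.94, so a lower level was not detectable at this depth in the control library. The list stood at 3751 CPM in expanded cells against 5242 in unique cells of the RGX-104 library and at 4476 against 5919 CPM in the control library, ratios of 0.716 (0.664 to 0.770) and 0.756 (0.685 to 0.832). With unique cells reweighted to the types of the expanded cells, the control ratio was 1.003. Ccr7, the receptor that brings T cells into lymph nodes, stood at 364 CPM in expanded cells against 694 in unique cells of the RGX-104 library and at 424 against 900 CPM in the control library. Its ratios were 0.52 (0.41 to 0.66) and 0.47 (0.34 to 0.64), and no clonotype gave more than 17.5% of its UMIs. Ccr7 UMIs were found in 23 of 35 and 16 of 23 expanded cells of the RGX-104 and control libraries.

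Dapl1, a gene of resting T cells, had ratios of 0.56 (0.36 to 0.83) and 0.49 (0.26 to 0.84) in the RGX-104 and control libraries, and Klf2, the factor behind egress and homing receptors, 0.73 (0.57 to 0.92) and 0.51 (0.35 to 0.71). Il7r, the receptor for the survival cytokine IL-7, had 0.74 (0.57 to 0.95) and 0.59 (0.40 to 0.84); as a mean over cells the RGX-104 ratio was 1.05. Tcf7, a factor of naive and memory cells, had 0.89 (0.69 to 1.13) in the RGX-104 library and 1.18 (0.87 to 1.56) in the control library, on different sides of 1 with both intervals across it.

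The other genes with the lowest interval bounds included highly expressed ones with small differences. Eef1a1, a translation elongation factor, stood at 5171 CPM in expanded cells against 6477 in unique cells of the RGX-104 library and at 5420 against 6887 CPM in the control library, ratios of 0.80 (0.75 to 0.85) and 0.79 (0.72 to 0.86). Fau, which encodes a ribosomal protein fused to a ubiquitin-like one, had 0.69 (0.64 to 0.73) and 0.76 (0.70 to 0.83), and Eef1b2, Rack1 and Nme2 had 0.74, 0.79 and 0.81 in the RGX-104 library and 0.74, 0.79 and 0.71 in the control library. None of these 5 passed 1.5-fold in both libraries, and without the closest pairs Nme2 stood at 1.04 in the RGX-104 library. Tubb2a, a tubulin, had 1 UMI in expanded cells of the RGX-104 library and 0 in those of the control library, against 35.9 and 46.2 CPM in unique cells of the RGX-104 and control libraries. Arl4c, a small GTPase, had 0.65 (0.43 to 0.95) and 0.44 (0.19 to 0.88).

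The sums of the CD8, Th1 and NK cell lists stood above 1 in the RGX-104 library and below 1 in the control library, though not under all alternatives. The list of CD8 lineage and class I-restricted T cells stood at 4937 CPM in expanded cells against 2347 in unique cells of the RGX-104 library, a fold of 2.10 (1.97 to 2.25), and at 1368 against 2246 CPM in the control library, a fold of 0.609 (0.508 to 0.724). The Th1 and interferon gamma list had 2.64 (2.47 to 2.82) in the RGX-104 library and 0.741 (0.606 to 0.897) in the control library. Its genes did not all follow the sum. Of 13 measured, 4 were higher in both libraries, Cxcr3, Gzmb, Bhlhe40 and Id2, and none lower, against 7.62% of all genes higher. The median log2 ratio over the list was 1.18 in the RGX-104 library and 0.05 in the control library. Cytotoxic granule genes had 2.14 (2.0 to 2.28) and 1.29 (1.14 to 1.45), with 3 of 15 measured genes higher in both libraries and 1 lower, on 1 UMI in the RGX-104 library and 0 in the control library. The NK cell list had 31 UMIs and a ratio of 1.87 (1.26 to 2.69) in the RGX-104 library and 1 UMI and 0.151 (0.0038 to 0.842) in the control library. With all paired barcodes the control ratios were 1.22 for the CD8 list and 1.54 for the Th1 list, and with unique cells reweighted to the types of the expanded cells the control CD8 list stood at 1.07 and the RGX-104 NK cell list at 0.92. The contrast between the libraries was not tested, since there is 1 library per chow.

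Ccl5, chosen here after its values were seen, stood at 2013 CPM in expanded cells against 540 in unique cells of the RGX-104 library, a fold of 3.73 (3.35 to 4.15), and at 159 against 384 CPM in the control library, a fold of 0.41 (0.23 to 0.68). With all paired barcodes, that is, with expanded and unique barcodes lacking an annotation added, the control ratio was 2.93. Of these, 1 unannotated barcode of TRAV10/TRBV12-2+TRBV13-2 had 116 UMIs of Ccl5, 17 of Cd74 and 2 of Cd3e. Its clonotype had 98 UMIs of the myeloid list, and the part of other cells in that barcode was not tested. TRAV7-3/TRBV29 gave 41.1% of the Ccl5 UMIs of annotated expanded cells in the RGX-104 library. Ifng had 52 UMIs in expanded cells of the RGX-104 library, a fold of 10.5 (7.56 to 14.4), and 0 UMIs in those of the control library. Control unique cells had 4.61 CPM, which predicts fewer than 3 UMIs in the 94278 of expanded cells. A lower level was thus not detectable there. TRAV5D-4/TRBV10 gave 88.5% of the 52. Gzmb had 5.39 (3.78 to 7.52) in the RGX-104 library and 1.62 (0.44 to 4.22) in the control library, where all 4 UMIs lay in the Treg clonotype TRAV14-3/TRBV20. Nkg7 had 2.13 (1.81 to 2.50) and 1.08 (0.78 to 1.46). The coreceptor genes did not follow: Cd8a had 0.97 (0.71 to 1.30) and 0.65 (0.38 to 1.05), and Cd8b1 0.91 (0.72 to 1.13) and 0.76 (0.54 to 1.03).

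Other gene groups had smaller or unequal ratios. The oxidative phosphorylation list had summed ratios of 1.18 (1.13 to 1.23) in the RGX-104 library and 1.04 (0.97 to 1.12) in the control library, and none of its 27 genes passed 1.5-fold in both. The glycolysis list had 1.59 (1.47 to 1.71) and 1.17 (1.02 to 1.32), with no gene higher in both and Slc16a1, a lactate transporter, lower in both on 3 UMIs in the RGX-104 library and 0 in the control library; with TMM factors the control ratio was 0.92. The type I interferon list had 1.27 (1.17 to 1.37) and 1.67 (1.51 to 1.86), with 3 of 24 genes higher in both and 1 lower. The dissociation and stress list had 1.21 (1.15 to 1.28) and 0.98 (0.91 to 1.07). The list of T cell markers had 1.14 (1.08 to 1.2) and 1.25 (1.16 to 1.34), and 0.981 and 0.988 with TMM factors.

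The sum of the LXR targets was slightly lower in expanded than in unique cells, through Ccr7, which the naive list also holds. The list had summed ratios of 0.905 (0.824 to 0.991) in the RGX-104 library and 0.786 (0.668 to 0.918) in the control library, with 3 of 16 measured genes higher in both, Scd2, Nr1h2 and Smpdl3a, and 3 lower, Apoe, Ccr7 and Arl4c. Without Ccr7 the ratios were 1.03 (0.934 to 1.14) and 1.01 (0.837 to 1.21). Apoe had 0 UMIs in expanded cells of both libraries, where 2.25 and 0.74 were expected from unique cells, so a lower level was not detectable at this depth. Scd2, a fatty acid desaturase, stood at 453 CPM in expanded cells against 287 in unique cells of the RGX-104 library and at 84.9 against 23.2 CPM in the control library, ratios of 1.58 (1.26 to 1.96) and 3.66 (1.56 to 7.37). Abca1, the cholesterol exporter, had 1.33 (0.88 to 1.93) in the RGX-104 library and 0 UMIs in expanded cells of the control library. Control unique cells had 14.1 CPM, which predicts fewer than 3 UMIs at this depth, so a lower level was not detectable. Srebf1, the master factor of fatty acid synthesis, had 0.80 (0.49 to 1.25) and 1.21 (0.25 to 3.59), and Smpdl3a, a phosphodiesterase, 1.54 (0.89 to 2.50) and 2.46 (1.37 to 4.09). The cholesterol synthesis and uptake list had 1.05 (0.91 to 1.21) and 1.06 (0.74 to 1.47), and none of its 18 measured genes was higher in both.

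**Figure D5:**
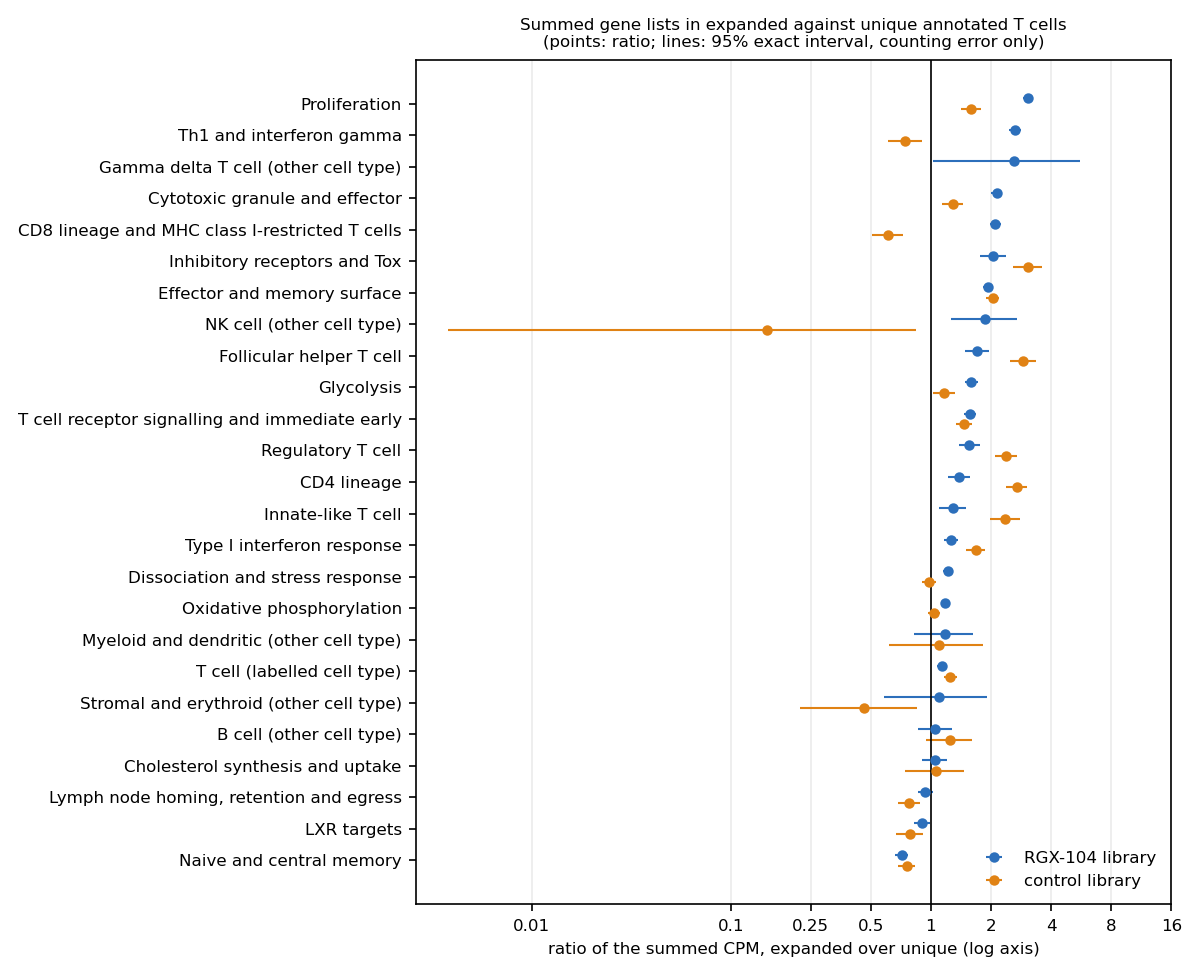
Ratio of the summed CPM of each gene list in expanded over unique annotated T cells (log axis) with 95% exact intervals, in the RGX-104 library (blue) and the control library (orange); the gamma delta list is not drawn for the control library, where it had 0 UMIs. Proliferation stands highest in the RGX-104 library at 3.07, naive genes lie below 1 in both, and the CD8, Th1 and NK cell lists lie above 1 in the RGX-104 library and below 1 in the control library; under alternatives the control CD8 list stands at 1.22 or 1.07, the control Th1 list at 1.54 and the RGX-104 NK cell list at 0.92, and the T cell list in both libraries and the control glycolysis list stand below 1 with TMM factors.

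Between chows, expanded cells were compared with expanded cells and unique cells with unique cells. Of 792 genes with at least 50 UMIs over the expanded cells of both libraries, 91 (11.5%) were at least 1.5-fold higher with RGX-104 than with control chow in expanded cells and 64 (8.08%) were lower. Among unique cells 7 of the same genes (0.884%) were higher and 1 (0.126%) was lower. The 792 genes were chosen by their UMIs in expanded cells, so a gene high in the expanded cells of 1 library alone could enter, and unique cells were far deeper; the counts of the 2 kinds of cell are therefore not compared. The summed counts of expanded cells were 35 and 23 cells from few clonotypes, so clonotype and chow cannot be told apart in them.

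The sums of the lipid lists were higher with RGX-104 in both kinds of cell, though few of their genes were measured in expanded cells. Of 3 measured LXR targets there, Scd2 was at least 1.5-fold higher and Stk17b lower, at 0.597 (0.429 to 0.833). No gene of the cholesterol list was measured in expanded cells. The LXR target list stood at 2471 CPM with RGX-104 against 1697 with control chow in expanded cells, a ratio of 1.46 (1.21 to 1.75), and its ratio in unique cells was 1.26 (1.24 to 1.29). Without Ccr7 the ratios were 1.66 (1.35 to 2.05) in expanded cells and 1.62 (1.58 to 1.66) in unique cells. The cholesterol list had 1056 against 382 CPM in expanded cells, a ratio of 2.77 (1.93 to 4.06), and 2.79 (2.67 to 2.91) in unique cells. Scd2 had 5.33 (2.59 to 12.7) in expanded cells and 12.4 (10.7 to 14.5) in unique cells. Abca1 had 28 UMIs with RGX-104 and 0 with control chow in expanded cells, and a ratio of 7.80 (6.39 to 9.60) in unique cells.

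Activation groups had other values in the expanded cells than in the unique cells of the same libraries, a contrast that was not tested. The proliferation list had 2.36 (2.09 to 2.68) with RGX-104 over control chow in expanded cells and 1.23 (1.2 to 1.25) in unique cells, and the cytotoxic list 1.72 (1.5 to 1.98) and 1.04 (1.02 to 1.06). The effector and memory list had 0.95 (0.871 to 1.04) and 1.0 (0.988 to 1.02), with 3 of 15 measured genes at least 1.5-fold higher and 2 lower in expanded cells. The follicular helper list had 0.586 (0.480 to 0.716) in expanded cells and 0.996 (0.958 to 1.04) in unique cells. The part of the types of the clonotypes in these values was not tested.

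V genes were counted by clonotype, since a clonotype fixes its V genes. TRBV3, at positions 41048394 to 41048824 of chromosome 6 in GRCm38.p6, was used by 6 of 28 expanded clonotypes in the RGX-104 library, or 21.4% (8.30% to 41.0%), against 8.87% of unique ones. In the control library it was used by 2 of 17, or 11.8% (1.46% to 36.4%), against 7.40%. Both intervals include the unique share. Of the 6 clonotypes, TRAV14-1/TRBV3 and TRAV6-7-DV9/TRBV3 had UMIs of Cd4 and none of Cd8a or Cd8b1, and TRAV19/TRBV3 had the reverse. TRAV9-1/TRBV3 and TRAV14D-3-DV8/TRBV3 had both and TRAV4D-4/TRBV3 neither, so the 6 did not share a coreceptor. TRBV13-1 and TRBV19 were each used by 3 of 17 expanded control clonotypes (17.6%, 3.80% to 43.4%), against 5.96% and 7.63% of unique ones, and this interval includes both shares.

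CDR3 lengths differed little. The TRA CDR3 had a mean of 40.0 ± 3.17 bases (SD over 28 clonotypes) in expanded against 40.5 ± 4.05 bases in unique clonotypes of the RGX-104 library, and 39.9 ± 3.79 (SD over 17) against 40.7 ± 3.84 bases in the control library. The TRB median was 42 bases in expanded and unique clonotypes of both libraries. The TRA of an expanded clonotype was found in another clonotype for 0 of 28 in the RGX-104 library and 3 of 17 in the control library (17.6%), against 3.97% and 3.70% of unique clonotypes in the RGX-104 and control libraries. For TRB this was 1 of 28 (3.57%) and 0 of 17, against 0.941% and 1.33%. The invariant natural killer T rearrangement of TRAV11 with TRAJ18 was found in no expanded clonotype, against 11 unique clonotypes in the RGX-104 library and 12 in the control library.

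Markers of other cell types and doublet scores were compared between expanded and unique cells. At least 3 B cell genes were read in 12 of 35 annotated members (34.3%) against 21.2% of unique cells in the RGX-104 library, and in 3 of 23 (13%) against 13.3% in the control library. Per cell the B cell list ranged up to 2599 CPM in annotated members and 4653 CPM in unique cells of the RGX-104 library, and up to 1986 and 9104 CPM in those of the control library. Csf1r of macrophages and Ncr1 of NK cells were at 0 in annotated members of both libraries, but unique cells of the RGX-104 library had only 5 and 1 UMIs of them, so 0 says little at this depth. Lyz2 had 4 UMIs in annotated members of the RGX-104 library, 20.8 against 15.9 CPM in unique cells, and 0 UMIs in those of the control library. The myeloid list stood at 192 CPM in annotated expanded cells and 164 CPM in unique cells of the RGX-104 library, and at 159 and 145 CPM in those of the control library. The doublet score of the authors' deposited table had a median of 0.0692 in annotated members against 0.0214 in unique cells of the RGX-104 library and 0.0422 against 0.0213 in the control library, and the authors called all of these cells singlets. More than 1 productive chain of a kind was found in 7 of 61 members of the RGX-104 library (11.5%) and 0 of 35 of the control library, against 12.9% and 13.3% of unique cells. The part of doublets in the gene values was not tested.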

How the data were processed

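RNA and receptors were measured in 1 library each per chow. Matrices of UMI counts, genes by barcodes, were deposited, made with software 5.0.0 per the file headers, and reads were aligned to mm10 with Cell Ranger and analysed with Seurat 5.0.3, per the submitters' processing notes. The RGX-104 and control RNA libraries held 38480769 and 31530931 UMIs. The contig tables, as deposited, give counts of UMIs per assembled chain. In the authors' deposited table each annotated cell has a mitochondrial percent, cell cycle scores, a doublet score given as a fraction between 0 and 1, a type and a clonal frequency. That table lists all annotated T cells as singlets, and no doublet caller was run here. Its cells were joined to barcodes by total UMIs, detected genes and mitochondrial percent, and each matched exactly 1 barcode. In the control library 1 unique paired barcode had no RNA.

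Annotated T cells with both chains were compared, expanded with unique, by UMIs summed within a library and divided by the summed totals (CPM), with exact conditional binomial 95% intervals; shares have Clopper-Pearson intervals. A gene was measured with at least 50 UMIs in each library and called at 1.5-fold in the same direction in both. With 1 library per chow and cells that are not replicates, no p-value was computed. Residuals for the likeness of barcodes used genes with at least 200 UMIs. Named genes had at least 20 CPM in a sum: the 12 highest and 12 lowest by the interval bound nearest to 1, up to 4 per gene list, and a set of lineage, activation and LXR genes; genes named only as members of a called set are given without values, and some genes of this rule are not reported here. The members and the 25 lists were chosen with earlier results of these data known. Alternatives covered the scaling (TMM of edgeR 4.0.16 in R 4.3.3, used for factors alone), filters, thinning, reweighting by type, and leaving out clonotypes. Scripts were tested on simulated data. Python 3.11.15, numpy 2.4.6, pandas 2.3.3, scipy 1.17.1 and matplotlib 3.10.9 were used.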

Additional observations from a re-analysis of the deposited data

Results flagged for a closer look

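The sums of 3 gene lists had opposite directions in the libraries when expanded cells were set against unique cells, and this difference was not tested. The summed CD8 lineage list stood at 2.10 times the unique level in the RGX-104 library and at 0.609 times in the control library. The Th1 and interferon gamma list stood at 2.64 times in the RGX-104 library and at 0.741 times in the control library. Yet 4 of its 13 measured genes were higher in both libraries and none lower. The NK cell list stood at 1.87 times in the RGX-104 library, on 31 UMIs, and at 0.151 times in the control library, on 1 UMI. None of the 3 contrasts held under all alternatives. With all paired barcodes the control CD8 list stood at 1.22 and the control Th1 list at 1.54, and with unique cells reweighted by type the control CD8 list stood at 1.07 and the RGX-104 NK cell list at 0.92.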

How the results depend on the processing

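Several alternatives, and all values of Ccl5, were chosen after seeing the data. The alternative without mutual nearest pairs left out, whole, every clonotype with mates each nearest to the other. Others used the clonotype names of the contig tables, used all paired barcodes between chows, or left Ccr7 out of the LXR list. A further alternative asked for 3 UMIs observed or expected in expanded cells of both libraries. No paired analysis was possible because each chow had 1 library and the labels give no replicate numbers shared by groups. The results rest on 35 and 23 annotated members of the RGX-104 and control libraries, so each sum is open to single clonotypes: without mutual nearest pairs 13 and 15 cells were left, and with at least 3 barcodes per clonotype 4 and 2.

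By the TRB alone the share in expanded clonotypes was 7.11% in the RGX-104 library and 5.32% in the control library, among annotated T cells of the RGX-104 library 2.71%, with at least 3 barcodes 0.710% and 0.17%, and without mutual nearest pairs 1.98% and 1.2%. With at least 3 barcodes, Cytotoxic T held 100% of the 4 members of the RGX-104 library, Tfh 0% and the CD8 types together 0%, and in the control library Tfh 0% and the CD8 types 0%. Beside 617 genes higher in both libraries, there were 280 with TMM factors, 343 with totals that leave out genes of receptors, immunoglobulins, mitochondria and ribosomal proteins, 249 at 200 UMIs, 364 with unique cells reweighted to the types of the expanded cells, 334 thinned to 2000 UMIs and 178 at 2-fold. Beside 550 lower genes, there were 960 with TMM factors, 841 with those totals, 958 at 20 UMIs, 113 at 200 UMIs, 116 with at least 3 UMIs observed or expected, 2694 with at least 3 barcodes, 277 at 2-fold and 907 without mutual nearest pairs.

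The following ratios crossed 1, and the cause was not tested. Without mutual nearest pairs, RGX-104 ratios were 0.831 for S100a10, 1.04 for Nme2, 0.978 for Cd4, 0.661 for Icos, 0.869 for Maf, 0.961 for Cxcr3, 0.776 for the CD4 list, 0.832 for the Treg list and 0.721 for the innate-like list, and control ratios 0.671 for Lgals1, 0.964 for Cd4, 0.876 for Ctla4 and 0.792 for the glycolysis list. With reweighted types, control ratios were 0.956 for Bhlhe40, 0.793 for Ikzf2, 1.31 for Ccl5, 1.07 for the CD8 list, 0.975 for the Treg list, 1.003 for the naive list and 0.930 for glycolysis, and RGX-104 ratios 0.916 for the innate-like list and 0.92 for the NK cell list. With all paired barcodes, RGX-104 ratios were 1.03 for Nme2 and 0.974 for Ikzf2, and control ratios 2.93 for Ccl5, 1.22 for the CD8 list and 1.54 for the Th1 list. Lgals1 was 0.996 in the RGX-104 library without TRAV5D-4/TRBV10, the clonotype with most annotated cells. Without 3 of the 10 control clonotypes that tied at 2 annotated cells, the control ratios were 0.592 for Lgals1 and 0.951 for glycolysis. Il7r in the RGX-104 library was 1.05 as a mean over cells, 1.02 as a mean over clonotypes and 1.12 when thinned. With at least 3 barcodes, RGX-104 ratios were 0.311 for Nr4a1 and 0.616 for Ikzf2. Without Ccr7 the LXR list was 1.03 in the RGX-104 library and 1.01 in the control library. With TMM factors the T cell list was 0.981 in the RGX-104 library and 0.988 in the control library, and control glycolysis 0.92.

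Of the other values of genes and lists, 1085 moved little and 400 moved without a change of direction. A further 65 had no value because expanded UMIs and those expected from unique cells were both under the floor of 3.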
